A study of Homo sapiens with 4 samples.

Results

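The EGF receptor family was examined through 10 genes: the receptors EGFR, ERBB2 and ERBB3, the ligands AREG, EREG, HBEGF, TGFA and NRG1, and the inhibitors ERRFI1 and LRIG1. They were found by gene symbol among the 13957 genes of the table. Only genes with a value there were taken, so the presence of all 10 is not a result, and they are not the whole family. The RNA came from MDA-MB-231 Fluc, a line of triple-negative breast cancer cells that carries an inserted luciferase gene for imaging. The study compared 2 samples given 50 μM cordycepin, which is 3′-deoxyadenosine, with 2 given only the vehicle DMSO, and RNA was taken from each after 2 h. Both groups are the same engineered line, kept in medium with fetal bovine serum.

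Only 1 value per gene could be used, the log2 CPM over all libraries (CPM, counts scaled by library size, on a log2 scale). It is read here as a mean over the libraries, but how the authors computed it is not given in the sources used here. It pools cordycepin and DMSO libraries, so it is the level of neither group, and a gene that differed between them lies somewhere between its 2 group levels. The authors' own fold changes and p-values were not used, and the effect of cordycepin on these genes was therefore not analysed here. Without values per library no SD, interval or test can be given for any level, and it cannot be said which neighbours in an order of levels differ beyond the spread between samples. Sequencing depth is unknown for the same reason.

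Receptors of this family are tyrosine kinases at the cell surface. EGFR binds EGF, amphiregulin, epiregulin, HB-EGF and TGF-α, ERBB3 binds neuregulins and has a weak kinase, and ERBB2 has no known ligand of its own and pairs with the others. The ligands are made as membrane proteins and are cut free by ADAM proteases. ERRFI1 (also called MIG6) binds the active kinase and blocks it, and LRIG1 is a membrane protein that promotes removal of the receptors, so both act as brakes. In triple-negative breast cancer EGFR is often abundant, and ERBB2 is not amplified by definition.

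The label of the cell line was checked against marker genes. Over the 6 genes listed as high in these mesenchymal cells, mean levels ran from 8.58 log2 CPM for FOSL1 to 11.01 for AXL, and vimentin (VIM) was at 10.45. Of genes listed as low, the epithelial cadherin CDH1 and EPCAM were both at 3.68, and the luminal factors FOXA1 and GATA3 were at 2.34 and 4.48. Per kilobase of transcript, a scale described below, EPCAM was at 3.05 log2 CPM and GATA3 at 2.86, near the median of 3.04. CDH1 and FOXA1 were lower on that scale, at 1.41 and 0.53, and the 6 genes listed as high ran from 7.7 to 9.34. The hormone receptor genes ESR1 and PGR, the basal keratin KRT5 and the 4 markers of leukocytes and endothelium were not analysed here. Over the whole table the mean level ran from 0.56 to 13.43 log2 CPM, with a median of 4.58.

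The sequences before the starts of AREG and EGFR are shown because these genes had the highest levels per length of the 10, described below, and their promoters differ in make-up. Both are the 250 bases just upstream of the RefSeq start, on the plus strand of GRCh38.p14, at chr4:74444886-74445135 for AREG and chr7:55018767-55019016 for EGFR. Capitals mark a TATA box (TATAAA), a CRE (TGACGTCA, the cyclic AMP response element) or a GC box (GGGCGG, here in its reverse form CCGCCC).
AREG: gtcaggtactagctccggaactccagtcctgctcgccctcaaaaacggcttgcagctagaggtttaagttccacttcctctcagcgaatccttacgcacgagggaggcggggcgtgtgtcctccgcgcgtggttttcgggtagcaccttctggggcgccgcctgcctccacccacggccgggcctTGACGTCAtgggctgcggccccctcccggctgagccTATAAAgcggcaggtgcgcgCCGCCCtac
EGFR: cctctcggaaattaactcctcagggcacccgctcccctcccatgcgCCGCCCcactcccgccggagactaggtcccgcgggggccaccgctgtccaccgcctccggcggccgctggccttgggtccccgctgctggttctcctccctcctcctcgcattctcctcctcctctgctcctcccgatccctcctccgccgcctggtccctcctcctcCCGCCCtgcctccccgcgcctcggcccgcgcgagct

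The AREG window holds a TATA box that begins 29 bases before the start and a CRE that begins 65 bases before it, as well as a GC box. The EGFR window holds 2 GC boxes, 204 and 36 bases before the start, and neither of the other motifs. A window of this kind was found for 8 of the 10 genes, all except ERBB3 and NRG1. Searched on both strands, TATAAA was in 2 of the 8 (AREG and EREG) against 5.04% of 9764 windows of genes in the table. TGACGTCA was in 1 of 8 (AREG) against 2.96%, GGGCGG in 6 of 8 against 68.3%, and the AP-1 site TGACTCA in 0 of 8 against 2.43%. The GC content was highest in HBEGF, at 76.4%, followed by TGFA (75.6%), ERRFI1 (75.2%) and EGFR (73.6%). It was lowest in EREG, at 58.0%, the first quartile of the 9764 windows, whose median was 65.2%. These matches describe letters in a window and not the use of a site.

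Among the receptors, EGFR had the highest level and ERBB3 the lowest. EGFR, on chromosome 7 (55019017 to 55211628, GRCh38, plus strand), had a mean level of 8.64 log2 CPM, or 400.2 CPM, above 97.3% of the genes of the table. Genes without a value there do not count in this or any other percentile or median given here. ERBB2, on chromosome 17 (39687914 to 39730426, plus strand), was at 6.49 log2 CPM, or 90.1 CPM. ERBB3, on chromosome 12 (56076799 to 56103505, plus strand), was at 2.40 log2 CPM, or 5.26 CPM, and only 19.3% of genes were lower. Of the summed CPM of the 3 receptor genes, 80.8% came from EGFR, and of their summed level per length, described next, 66.1% did.

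A long transcript gives more reads than a short one at the same number of molecules, so levels of different genes were compared per kilobase of the canonical transcript in GENCODE release 44. The canonical EGFR transcript has 28 exons and 9905 bases, that of ERBB2 has 27 exons and 4557 bases, and that of ERBB3 has 28 exons and 5615 bases. Per length, EGFR was at 5.34 log2 CPM per kilobase (40.4 CPM per kilobase), ERBB2 at 4.31 (19.8) and ERBB3 at -0.09 (0.937). The level of EGFR was thus 2.04 times that of ERBB2 and 43.1 times that of ERBB3 per length. The distance between EGFR and ERBB2 depended on the length used, and was 3.66-fold with the length given in the authors' table and 2.88-fold with the union of all annotated exons. The order of the receptors was the same with each of these lengths. Exons of MIEN1 and PGAP3, genes on the opposite strand, overlap 571 and 144 exonic bases of ERBB2, and their own mean levels were 4.44 and 3.63 log2 CPM.

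**Figure D1:**
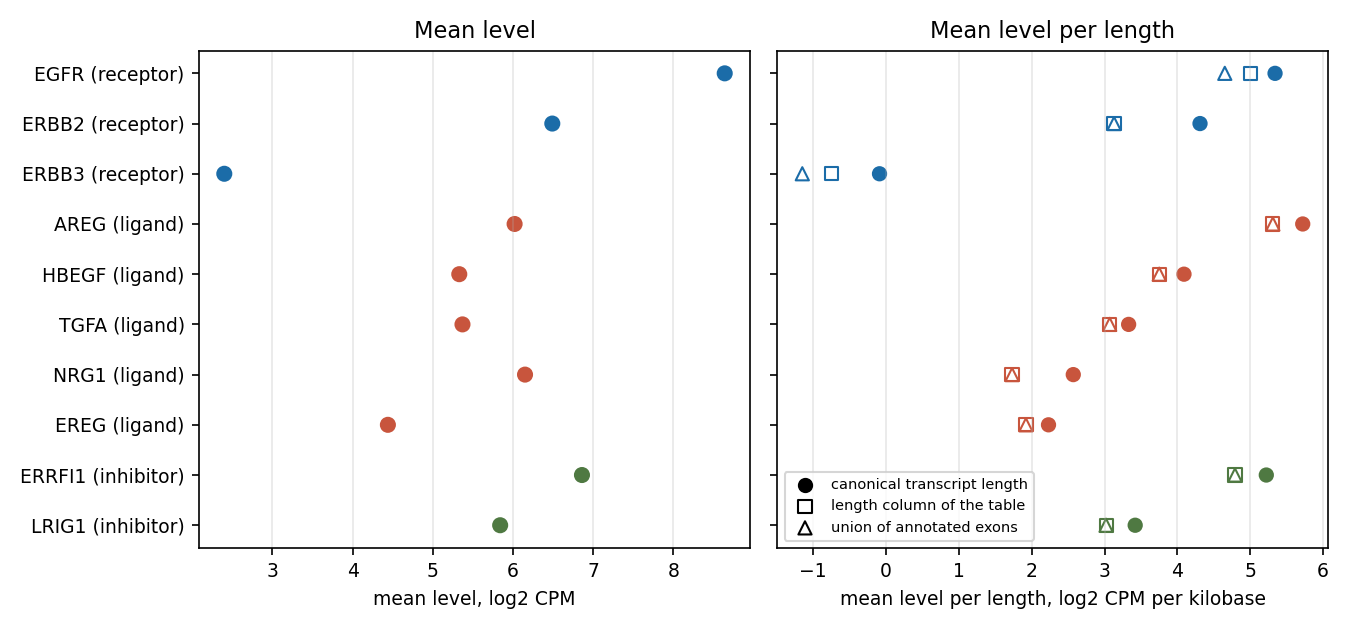
Mean level of each gene over the cordycepin and DMSO libraries, in log2 CPM (left) and in log2 CPM per kilobase (right), for receptors (blue), ligands (red) and inhibitors (green); there are no error bars because only the mean was used. Filled circles on the right use the canonical transcript, open squares the length in the authors' table and open triangles the union of exons. EGFR at 8.64 is highest on the left, and AREG at 5.72 is highest among the filled circles.

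The 5 ligand genes lay within a narrow range as reads, from 4.44 to 6.15 log2 CPM, and were more widely spread per length. NRG1, which encodes neuregulins, ligands of ERBB3 and ERBB4, had the highest level of the 5 in reads, at 6.15 log2 CPM (71.0 CPM). AREG, which encodes amphiregulin, was at 6.02 (64.9 CPM). TGFA, which encodes TGF-α, on chromosome 2 (70447284 to 70554193, minus strand), was at 5.37 (41.3 CPM). HBEGF, the gene of heparin-binding EGF-like growth factor, on chromosome 5 (140332843 to 140346603, minus strand), was at 5.33 (40.1 CPM). EREG, the epiregulin gene, was at 4.44 (21.7 CPM), just below the median of all genes. NRG1 spans 1216.4 kb of chromosome 8 (31639222 to 32855666, plus strand), has 35 annotated transcripts and a canonical transcript of 11983 bases, whereas AREG spans 9.9 kb and its canonical transcript has 1234 bases.

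Per length, AREG was the highest of all 10 genes, at 5.72 log2 CPM per kilobase (52.6 CPM per kilobase), above 88.2% of genes. HBEGF followed among the ligands at 4.09 (17.0 CPM per kilobase), then TGFA at 3.33 (10.03), NRG1 at 2.57 (5.92) and EREG at 2.23 (4.70). AREG was thus 3.09 times HBEGF, 8.88 times NRG1 and 11.2 times EREG per length, and it made up 58.3% of the summed level per length of the 5 ligands. In summed CPM, not corrected for length, NRG1 had the largest share, at 29.7%. AREG, HBEGF and TGFA kept this order with the 2 other lengths. NRG1 and EREG changed places, with NRG1 at 1.73 and EREG at 1.92 log2 CPM per kilobase when the length in the authors' table was used. That length is 21398 bases for NRG1, against 11983 in the canonical transcript, so its level per length depends on the choice more than that of the other ligands.

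The coding part of these ligand transcripts is short. It has 160 codons in TGFA, 169 in EREG, 208 in HBEGF, 252 in AREG and 640 in NRG1, against 1210 in EGFR, 1255 in ERBB2 and 1342 in ERBB3. Bases outside the coding sequence made up 88.9% of the canonical EREG transcript, 88.3% of TGFA, 84.0% of NRG1 and 73.4% of HBEGF, but 38.5% of AREG. In the receptors these shares were 63.3% for EGFR, 28.2% for ERBB3 and 17.3% for ERBB2.

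EREG and AREG are neighbours on chromosome 4 with BTC, the betacellulin gene, and the 3 lie within 429.4 kb (74365145 to 74794523). EREG (74365145 to 74388749) and AREG (74445136 to 74455005), both on the plus strand, are 56.4 kb apart, and BTC is a further 289.8 kb away. Their levels per length were unlike, at 5.72 log2 CPM per kilobase for AREG, 2.23 for EREG and -0.48 for BTC. AREG was 73.1 times BTC per length. The 10 genes lie on 9 chromosomes, and EREG and AREG are the only pair that shares one.

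ERRFI1 was the more abundant of the inhibitors. It lies on chromosome 1 (8004404 to 8026309, minus strand) and had a mean level of 6.86 log2 CPM, or 115.8 CPM, above 86.1% of genes. LRIG1, on chromosome 3 (66378797 to 66501263, minus strand), was at 5.84 log2 CPM, or 57.3 CPM. Per length ERRFI1 was at 5.22 log2 CPM per kilobase and LRIG1 at 3.42, a 3.50-fold difference that was 3.40-fold with the length in the authors' table. Exons of SLC25A26 on the opposite strand in GENCODE overlap 37.9% of the exonic bases of LRIG1, and SLC25A26 was at 4.28 log2 CPM. The libraries were stranded, but whether the counting used strand is not given in the sources used here, so the part of these genes in each other's counts was not tested.

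Set side by side per length, the order of the 10 genes was AREG, EGFR, ERRFI1, ERBB2, HBEGF, LRIG1, TGFA, NRG1, EREG and ERBB3. The first 3, a ligand, a receptor and an inhibitor, lay within 0.49 of each other on the log2 scale. ERRFI1 and EGFR were 1.08-fold apart with EGFR higher, and ERRFI1 was the higher with the union of exons, where the log2 difference was -0.14. The largest step between neighbours was from EREG to ERBB3, at 2.33 on the log2 scale. Summed per length, the 5 ligands had 90.3 CPM per kilobase, the 3 receptors 61.1 and the 2 inhibitors 48.1. These sums run over unlike numbers of genes, and AREG alone gave 58.3% of the ligand sum. The median per gene was lowest for the ligands, at 3.33 log2 CPM per kilobase, against 4.31 for the receptors and 4.32 for the inhibitors. With the union of exons the receptor sum, at 34.3, was slightly below that of the inhibitors, at 35.9, while the ligand sum was highest with each length. In CPM, without correction for length, the order of the sums was different, with 495.5 CPM for the receptors, 238.9 for the ligands and 173.1 for the inhibitors.

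**Figure D2:**
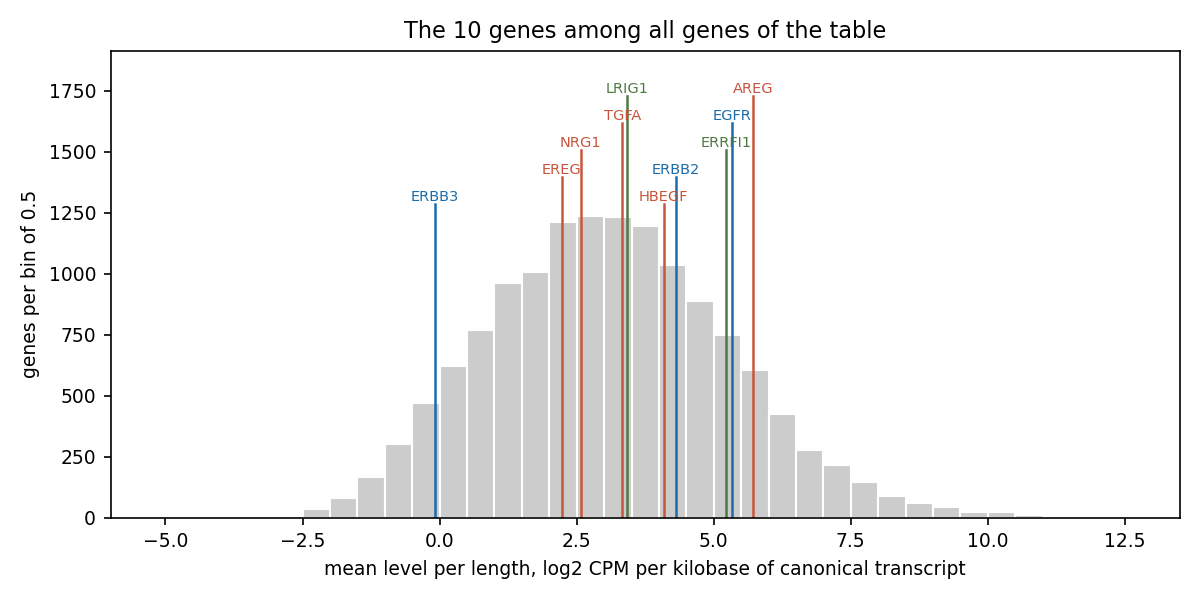
Histogram of the mean level per length of all genes with an annotated canonical transcript (x axis: log2 CPM per kilobase, y axis: genes per bin of 0.5), with the 10 genes drawn as lines for receptors (blue), ligands (red) and inhibitors (green). ERBB3 at -0.09 lies in the lower tail, and ERRFI1 at 5.22, EGFR at 5.34 and AREG at 5.72 lie on the upper side.

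Among all genes of the table, 8 of the 10 were above the median in log2 CPM, the exceptions being EREG and ERBB3, and 7 were above the median per length, with NRG1 as a further exception. The median of the 10 was 5.93 log2 CPM against 4.58 for all genes, and 3.75 log2 CPM per kilobase against 3.04.

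The levels of other genes of the pathway were read from a list of 29 genes, of which 24 had a value. Of the remaining ligands, EGF and BTC were near the lowest level in the table, at 0.90 and 0.93 log2 CPM. ERBB4, EPGN, NRG2, NRG3 and NRG4 were not analysed here. Per length, AREG was 180.0 times EGF. Each of the 5 ligands described above was higher per length than both EGF (-1.77 log2 CPM per kilobase) and BTC (-0.48) with each of the lengths used. ERBB3, at -0.09, was above BTC with the canonical transcript and below it with the length in the authors' table, where ERBB3 was at -0.75 and BTC again at -0.48.

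The proteases and their cofactors differed in level. ADAM10, which cuts betacellulin and EGF precursors, was at 8.35 log2 CPM. ADAM17, the main protease for amphiregulin, HB-EGF, epiregulin and TGF-α, was at 4.47. Per length ADAM10 was 5.81 times ADAM17, and 14.8 times with the union of exons. RHBDF1 and RHBDF2, the iRhom genes that support ADAM17, were close to each other at 3.46 and 3.48 log2 CPM per kilobase.

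Of the genes that act below the receptors, the adaptors GRB2 and SHC1 were at 5.59 and 5.49 log2 CPM per kilobase, close to EGFR. The phosphatase gene PTPN11 was the highest of the adaptor group at 6.37, and the docking protein gene GAB1 was the lowest at -0.53. Among the genes of receptor ubiquitination and endocytosis, HGS was at 5.96 and SH3KBP1 at 5.31, and CBLB was lowest at 0.80, with the ligase gene CBL at 2.91. With the length in the authors' table SH3KBP1, at 5.02, was above HGS, at 4.46. With the union of exons HGS was again the higher, at 4.06 against 3.53. RNF41, which encodes a ligase of ERBB3, was at 1.93. LRIG1 was 7.84 times LRIG2 and 12.9 times LRIG3 per length, so it was the most abundant of the LRIG genes. The phosphatase genes PTPN12 and PTPRJ, whose products act on receptors of this kind, were at 5.75 and 4.51.

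**Figure D3:**
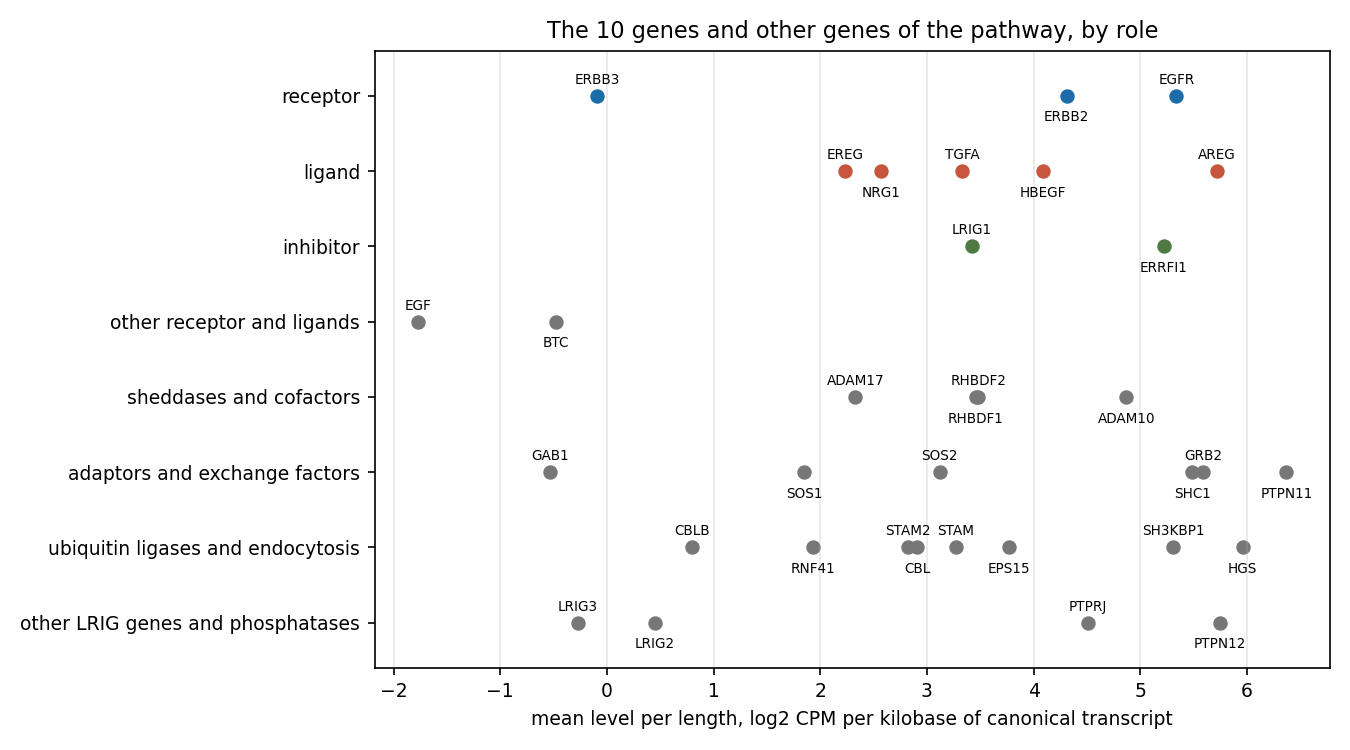
Mean level per length (x axis, log2 CPM per kilobase of canonical transcript) of the 10 genes and of the 24 other pathway genes with a value, in rows by role; each point is 1 gene and is labelled. EGF at -1.77 is the lowest point and PTPN11 at 6.37 the highest.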

How the data were processed

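RNA of 2 cordycepin and 2 DMSO samples of MDA-MB-231 Fluc cells was sequenced by the authors as stranded, ribosomal RNA-depleted libraries with 75 bp paired-end reads. The paper's methods state mapping to GRCh38.p13 and counting with rsubread, whereas the submitters' processing notes name TopHat, HTSeq, DESeq and Cufflinks. Normalization and the filter on low counts are not given in the sources used here. The authors' deposited table holds 1 log2 CPM per gene for all libraries, read here as a mean, and a gene length. It holds 0 columns of values per library, so no test was possible and depth per library is unknown. Its other columns of values are the authors' own comparison of cordycepin with DMSO (log2 fold change, F statistic, p-value and adjusted p-value), and these 4 were not used.

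The CPM over the table summed to 1005541. Levels per length were log2 CPM less log2 of the length in kilobases (1000 bases). The length was that of the canonical transcript in GENCODE release 44, which held 99.7% of the gene IDs and gave the same start and end for all 10 genes. Percentiles are shares of genes of the table at a lower level, and the lowest level in it was 0.56 log2 CPM. Alternatives were the length in the table, the union of exons, and ranks per length or among protein-coding genes. The calculation was tested on simulated data. The 10 genes and the lists were chosen with earlier results of these data known. All 10 genes are named, with the highest and lowest pathway genes of each role; the other pathway genes and the overlapping genes were named after their values were seen. Promoter windows are those of RefSeq (GRCh38.p14). Calculations used Python 3.11.15, numpy 2.4.6, pandas 2.3.3 and matplotlib 3.10.9.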

Additional observations from a re-analysis of the deposited data

How the results depend on the processing

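The order per length held for 42 of 45 pairs of the 10 genes with the length in the authors' table and for 41 of 45 with the union of exons. The pairs that turned with both were ERBB2 and HBEGF, NRG1 and EREG, and TGFA and LRIG1, and with the union of exons EGFR and ERRFI1 as well. The median percentile of the 10 genes among all genes was 73.1, and became 62.5 per length and 69.2 among protein-coding genes. No paired analysis was possible because no values per library were used, and for the same reason other fits of the effect of cordycepin (with a replicate block, another normalization, no filter on low counts, or without each sample in turn) were not run. Depth, which sets the precision of low genes such as ERBB3, EGF and BTC, is unknown.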
